A study of Bos taurus with 18 samples.

Results

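The genes described here encode the proteins of the cytosolic ribosome, in libraries labelled as cultured bovine fibroblasts at primary, senescent and immortalized stages. Members were all rows of the gene count table named RPL or RPS with a number, with at most 1 of A, X, Y, L or Y1 behind it, together with RPLP0, RPLP1, RPLP2 and RPSA. Genes of the mitochondrial ribosome and the RPS6 kinases were not members. The name rule found 106 rows, of which 99 had a total of at least 100 counts and were kept, out of 24596 genes in the table. The 99 rows carry 78 gene names and comprise 57 rows of large subunit genes, 38 of small subunit genes and 4 of the stalk genes RPLP0, RPLP1 and RPLP2. Of the 7 rows dropped, 6 were second rows of a name that stayed in, and the last was RPL10L, with 9 counts over all libraries. No row carried the name RPL22, RPL39L or RPL41, so these genes were not analysed here.

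RNA was sequenced from 18 libraries. They come from 2 lines, a Simmental-like one (PBF-13) and a Holstein-like one (PBF-15), that were isolated from cows and carried through long culture, and each line has 3 libraries labelled immortalized (HUN-BF-13 and HUN-BF-15), 3 labelled senescent (Sn-BF-13 and Sn-BF-15) and 3 labelled primary. The labels name no gene, transgene or drug that was used to immortalize the cells, and the series title calls the immortalization spontaneous. Library names in the count table differ by stage: the Simmental-like immortalized, senescent and primary libraries are called BF-13, BDF-20-MultiXray-Ctrl and BDF-20-3B-4, and the Holstein-like ones BF-15-P23, BF-15-P9 and BEF, so stage and named culture cannot be told apart. What the senescent name refers to is not given in the labels.

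Each cytosolic ribosome holds about equal numbers of most of these proteins, and the transcripts of nearly all of them share a pyrimidine tract at their start through which the mTORC1 kinase controls their translation together. Ribosomal proteins are made in the cytosol, imported into the nucleolus and assembled there with ribosomal RNA. A few of them also act elsewhere: unassembled RPL5 and RPL11 bind MDM2 and thereby stabilise p53, a pathway that is well known in senescent fibroblasts. Growing cells spend a large part of their transcripts on this group, which makes its summed share a common measure of how much transcription a culture gives to ribosome production.

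Simmental-like libraries held 18.2 to 23.2 M counts (M for 1e+06) and Holstein-like ones 11 to 14.1 M, apart from the 3 Holstein-like primary libraries with 1.42 to 1.47 M. The labelled cell type was checked against marker genes. Fibroblast markers (9 genes such as COL1A1, VIM and LUM) took 4.102% to 6.55% of the counts of Simmental-like libraries, where the summed skeletal muscle, heart, liver and kidney markers each took at most 0.00337%. In the Holstein-like line, fibroblast markers reached 6.65% in immortalized library 3 and were at 0.0725% to 0.647% in the other 8 libraries. In those, muscle markers took 23.7% in each primary library, heart markers 3.21% and muscle markers 3.47% in senescent library 1, liver markers 17.2% to 18.8% in senescent libraries 2 and 3 and immortalized library 1, and kidney markers 1.22% in immortalized library 2. Immune and endothelial markers each took at most 0.472% of the counts of any library. Both were highest in Holstein-like immortalized library 3, the one with fibroblast genes, at 0.385% and 0.472%. In Simmental-like libraries they took at most 0.000571% and 0.00107%, so that library differs from the cultured fibroblasts in these markers. The stage labels therefore form no groups in the Holstein-like line, whose libraries are described singly. Simmental-like senescent libraries 1 and 2 were nearly as close as repeat draws from 1 library, with a chi-square of 1.36 per gene, against 3.49 and 3.96 for the other senescent pairs. Values with both summed into 1 library are therefore given as well. The 3 Holstein-like primary libraries, of lower depth, were also that close, with 1.214 to 1.235 per gene. Their agreement with each other may therefore not be that of 3 separate samples. Replicates are biological per the labels, which do not mention separate cultures, so p-values cover only the spread among libraries, and this may be technical.

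Ribosomal protein genes took a smaller share of all counts in the senescent than in the primary Simmental-like libraries, and an intermediate share in the immortalized ones. The summed share was 10.1%, 5.67% and 7.23% in the 3 primary libraries, then 4.94%, 4.79% and 5.11% in senescent and 5.83%, 6.43% and 6.89% in the immortalized libraries. No primary library came down to the senescent range, and no senescent library reached the immortalized range, while the immortalized libraries lay within the range of the primary ones. Exact binomial 95% intervals, which cover counting error only, were as narrow as 10.12% to 10.15% for primary library 1, so the spread between libraries sets the precision. The mean share was 4.95% ± 0.16 in senescent and 7.68% ± 2.26 in primary libraries (SD, n = 3 each), a difference of -2.73 percentage points. It was 6.38% ± 0.531 in immortalized libraries, 1.43 points above the senescent and -1.297 points from the primary mean. A two-sided exact permutation test gave p = 0.1 for senescent against primary and for immortalized against senescent, the smallest value that 3 against 3 libraries allow, and p = 0.5 for immortalized against primary.

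**Figure D1:**
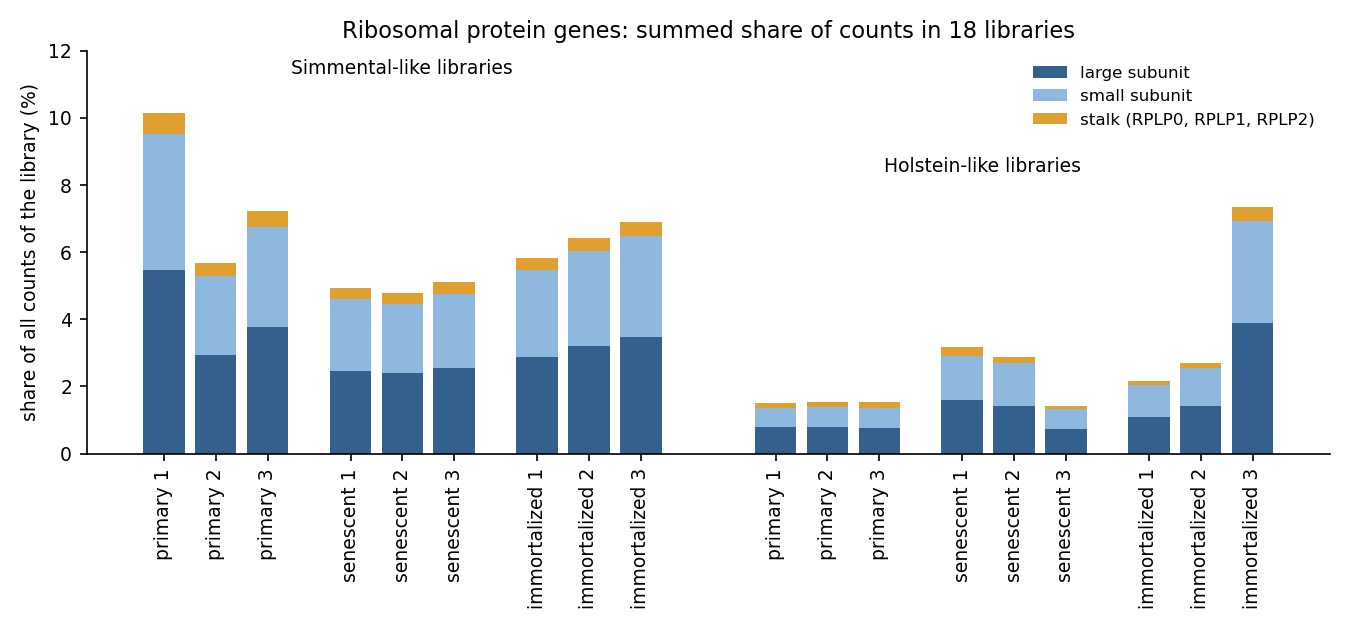
Share of all counts of a library (%, y axis) taken by the ribosomal protein genes in each of the 18 libraries, split into large subunit, small subunit and stalk genes. Labels under the bars give stage and replicate, and the line is written above the bars. Simmental-like bars run from 4.79% in senescent library 2 to 10.1% in primary library 1, and Holstein-like bars from 1.42% in senescent library 3 to 7.35% in immortalized library 3.

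Primary library 1 set much of the spread at the primary stage. In that library 94 of the 97 members detected in it had a larger share of counts than the mean of the other primary libraries, with a median difference of 0.78 log2 units. The 6 mitochondrially encoded protein genes named in the table took 7.42% of the counts there, against 1.88% and 2.32% in primary libraries 2 and 3. With those genes taken out of the library totals, the summed share differed by -3.004 points for senescent against primary, 1.456 for immortalized against senescent and -1.548 for immortalized against primary libraries, with the same p-values as before. Without primary library 1 the senescent share was -1.505 points from the primary mean, and the immortalized share was -0.072 points from it. The median SD of a member's log2 level between libraries was 0.675 at the primary, 0.058 at the senescent and 0.14 at the immortalized stage.

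Large and small subunit genes did not keep one ratio. The counts of small over large subunit genes were 0.738, 0.798 and 0.796 in primary libraries, 0.860, 0.859 and 0.862 in senescent ones, and 0.892, 0.875 and 0.868 in immortalized ones. All senescent values were above the primary range and below the immortalized range, by an exact permutation p = 0.1 in each of the 3 comparisons. The step from senescent to immortalized libraries depended on 1 small subunit gene, RPSA. It rose from 4.39% to 4.45% of the summed ribosomal protein counts in senescent libraries to 5.96% to 6.45% in immortalized ones. All small subunit genes together rose less, from 42.93% to 43.06% in senescent to 43.66% to 44.2% in immortalized libraries. The stalk genes took 0.486% ± 0.118 of the counts in primary, 0.348% ± 0.00875 in senescent and 0.393% ± 0.0262 in immortalized libraries (SD, n = 3 each).

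Gene by gene, senescent libraries held less of nearly every ribosomal protein transcript than primary libraries. Levels below are CPM (per 1e+06 counts) with library sizes adjusted by TMM, a scaling that lines up the bulk of genes between libraries, and changes are log2 values ± SE from edgeR's quasi-likelihood test with Benjamini-Hochberg adjustment over the 13099 genes tested, called at an adjusted p under 0.05. Of the 98 members tested, 94 were called lower and 0 higher in senescent libraries, while 29.7% of all genes tested were called lower and 28.3% higher. At an unadjusted p under 0.05 the count of higher members was also 0, as it was with DESeq2 and with limma-voom. The median change of the members was -1.27, against 0.01 over all genes tested, and for 95 members every senescent library was below every primary library (32.3% of all genes). RPL3L, a paralogue of RPL3 with at most 7 counts in a Simmental-like library, was the member too low to be tested. In bulk RNA, fewer cells with a transcript and less of it per cell cannot be told apart.

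The stalk proteins recruit translation factors to the ribosome. RPLP0, the stalk base, had 1641, 1600.5 and 1662 CPM in senescent libraries, against 3265, 2385 and 3009 CPM in primary libraries. The groups were well apart, and RPLP0 fell by 0.82 ± 0.13 on the log2 scale (adjusted p = 0.000888). RPLP1 and RPLP2, the acidic proteins that attach to RPLP0, changed by -1.23 ± 0.37 (adjusted p = 0.0201) and -1.05 ± 0.31 (adjusted p = 0.0179).

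Among small subunit genes, the first row of RPS6, the classical substrate of the S6 kinases, had 446, 419 and 464 CPM in senescent libraries, against 1999, 614 and 844 CPM in primary libraries. All senescent libraries were below the primary ones, with the widest gap to primary library 1, and the change was -1.38 ± 0.38 (adjusted p = 0.0141). A second row of RPS6 (ENSBTAG00000005315) differed less, with 344, 345 and 357 CPM in senescent and 643, 444 and 560 CPM in primary libraries. RPS19, needed for maturation of the small subunit and mutated in human Diamond-Blackfan anaemia, changed by -1.49 ± 0.33 (adjusted p = 0.00506). RPS27A, which is made as a fusion with ubiquitin, changed by -1.06 ± 0.27 (adjusted p = 0.0103), and RPS27 by -0.61 ± 0.18 (adjusted p = 0.0175). RPS4 and RPS4Y1, rows that RefSeq synonyms do not fully separate, changed by -0.91 ± 0.13 and -1.18 ± 0.25 (adjusted p = 0.000625 and 0.00426). RPS27L, a paralogue of RPS27 that is a p53 target in human cells, was among the members with the largest change. It had 62.5, 57.0 and 65.7 CPM in senescent libraries and 406, 155 and 218 CPM in primary libraries, and changed by -2.07 ± 0.31 (adjusted p = 0.000764).

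RPSA, the small subunit protein that is also known as the laminin receptor precursor, stood apart. It had 1873, 1814 and 1966 CPM in senescent libraries, against 2516, 2018 and 2382 CPM in primary libraries. Its groups did not overlap, but the gap between the nearest libraries was small. The change of -0.29 ± 0.12 had an adjusted p of 0.0562, and it was 0.19 (adjusted p = 0.137) when total counts replaced TMM scaling. RPSA was the only first row of its name that was not called lower among the 77 such rows tested.

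Large subunit genes included the ones with the widest range. RPL3, which lies next to the peptidyl transferase centre, had 716, 693 and 741 CPM in senescent libraries, against 2809.7, 1411 and 1824 CPM in primary libraries, a change of -1.49 ± 0.23 (adjusted p = 0.000867). RPL5 and RPL11, the MDM2-binding proteins of the particle that carries the small ribosomal RNA of the large subunit, changed by -1.24 ± 0.26 (adjusted p = 0.00396) and -0.83 ± 0.26 (adjusted p = 0.0223). RPL26, which binds p53 messenger RNA in human cells, had 201, 193 and 214 CPM in senescent libraries, against 1475, 482 and 676 CPM in primary libraries. All its primary libraries were above every senescent one, and the change was -2.11 ± 0.37 (adjusted p = 0.00162). RPL10, which completes the large subunit late in its assembly, changed by -1.04 ± 0.26 (adjusted p = 0.00991) and RPL39, at the exit of the peptide tunnel, by -1.30 ± 0.34 (adjusted p = 0.0122). In all, 54 of 56 large subunit rows, 37 of 38 small subunit rows and 3 of 4 stalk rows were called lower, with medians of -1.33, -1.21 and -0.96.

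Scaling mattered for the size of this difference. With total counts in place of TMM factors the median of all genes tested was 0.47 and that of the members was -0.76, and 71 members were called lower. Leaving out primary library 1 gave a median of -0.86 with 95 members called lower, and summing senescent libraries 1 and 2 gave -1.27 with 79. Among the named members, RPLP1 and RPL11 missed the threshold when any senescent library was left out, RPLP2, RPL4 and RPS27 when senescent library 1 or 2 was left out, and a second RPL23A row when primary library 3 or senescent library 1 or 3 was left out, with adjusted p of 0.0543 to 0.0859. With senescent libraries 1 and 2 summed, RPLP1, RPLP2, RPL4, RPL11 and RPS27 missed it (adjusted p 0.0565 to 0.0662). RPL4, which lines the peptide tunnel, and RPS2, at the entry of the messenger RNA channel, were at -0.67 ± 0.20 (adjusted p = 0.0183) and -0.91 ± 0.18 (adjusted p = 0.00344) with all libraries.

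**Figure D2:**
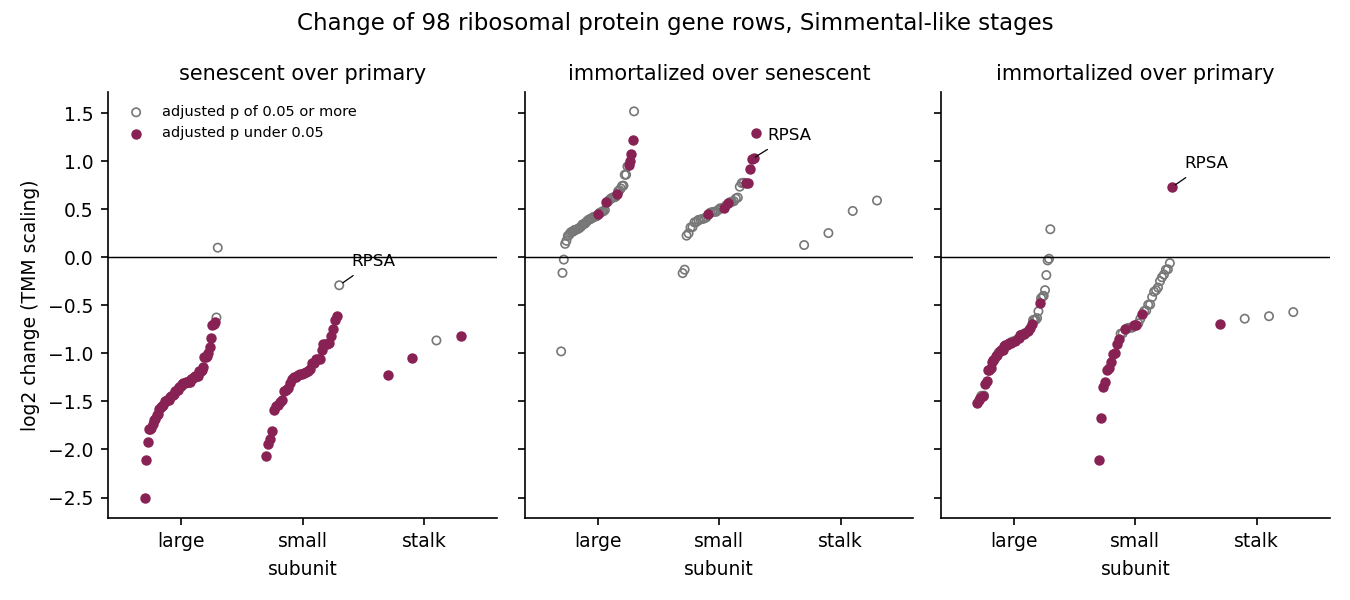
Log2 change (y axis, TMM scaling) of the 98 tested ribosomal protein gene rows by subunit in 3 comparisons of Simmental-like stages, each point 1 row, filled where the adjusted p was under 0.05 and sorted by value within a subunit. Medians are -1.27 for senescent over primary, 0.47 for immortalized over senescent and -0.79 for immortalized over primary, and RPSA is the only filled point above 0 in the last panel.

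Immortalized libraries held more of most ribosomal protein transcripts than senescent libraries, with smaller differences. The change was above 0 for 93 of 98 members, with a median of 0.47 against -0.0018 over all genes tested. Only 16 members were called higher and 0 lower, while 16.4% of all genes tested were called higher and 16.1% lower, so the share of members called was near that of all genes. At an unadjusted p under 0.05, 27 members were higher and 0 lower, and the count of lower members was also 0 with DESeq2 and with limma-voom. For 84 members every immortalized library was above every senescent library, against 35.6% of all genes. With total counts in place of TMM scaling, the median of all genes was -0.16 and that of the members 0.31.

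The number called depended on which libraries were in the fit. Fitting the 6 immortalized and senescent libraries alone, without the widely spread primary ones, gave 83 members higher and 2 lower. The share of all genes called in that fit is not given here, so these counts cannot be read as particular to the members. With all stages in the fit, 5, 3 and 5 members were called higher without senescent libraries 1, 2 and 3, and 9, 6 and 5 without immortalized libraries 1, 2 and 3. Summing senescent libraries 1 and 2 gave 4.

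RPSA had the lowest adjusted p of the members. It had 3634, 3844 and 3983 CPM in immortalized libraries, against 1873, 1814 and 1966 CPM in senescent libraries. The groups were far apart, and the change was 1.02 ± 0.12 (adjusted p = 0.0003). It was 0.86 with total counts (adjusted p = 0.000402).

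RPS26, which contacts messenger RNA at the exit channel of the small subunit, had 528, 547 and 581 CPM in immortalized libraries, against 272, 259 and 276 CPM in senescent libraries, a change of 1.04 ± 0.27 (adjusted p = 0.0173). RPL32, a large subunit protein, had 808, 893 and 987 CPM in immortalized libraries and 421, 414 and 439 CPM in senescent ones, a change of 1.08 ± 0.32 (adjusted p = 0.0308). RPL29, a surface protein of the large subunit, changed by 1.01 ± 0.33 (adjusted p = 0.0466). RPS29, a zinc-binding small subunit protein with 524 to 671 counts per immortalized library and 234 to 300 per senescent library, changed by 1.30 ± 0.34 (adjusted p = 0.0199). A second row named RPL36A (ENSBTAG00000025564) changed by 1.22 ± 0.34 (adjusted p = 0.026). RPS4 had 975, 1052 and 1089.5 CPM in immortalized libraries, against 608, 584 and 626 CPM in senescent libraries, and changed by 0.78 ± 0.13 (adjusted p = 0.00241). RPL4 changed by 0.66 ± 0.20 (adjusted p = 0.0326). RPSA and RPS4 kept their call whichever library was left out. RPS26, RPL32, RPL29, RPS29, RPL4 and the second RPL36A row missed the threshold when any 1 senescent library or immortalized library 3 was left out, all of them except RPS26 also without immortalized library 2, and RPL32, RPL29 and RPL4 also without immortalized library 1, with adjusted p of 0.0501 to 0.133. With senescent libraries 1 and 2 summed all 6 missed it (adjusted p 0.0606 to 0.126).

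Other members with known roles did not pass. RPL5 had a log2 change of 0.39 ± 0.25 (adjusted p = 0.272) and RPL11 one of 0.14 ± 0.25 (adjusted p = 0.708), which was -0.022 with total counts. RPL3 was at 0.59 ± 0.23 (adjusted p = 0.078), RPS6 at 0.58 ± 0.37 (adjusted p = 0.267), RPS19 at 0.58 ± 0.32 (adjusted p = 0.202) and RPS27L at 0.78 ± 0.30 (adjusted p = 0.083). RPLP0 was nearly level, with 1738, 1780.1 and 1839 CPM in immortalized libraries, against 1641, 1600.5 and 1662 CPM in senescent libraries. Its change was 0.13 ± 0.13 (adjusted p = 0.481), and -0.035 with total counts. RPL39 was at -0.16 ± 0.34 (adjusted p = 0.747), among 5 rows with a change below 0.

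**Figure D3:**
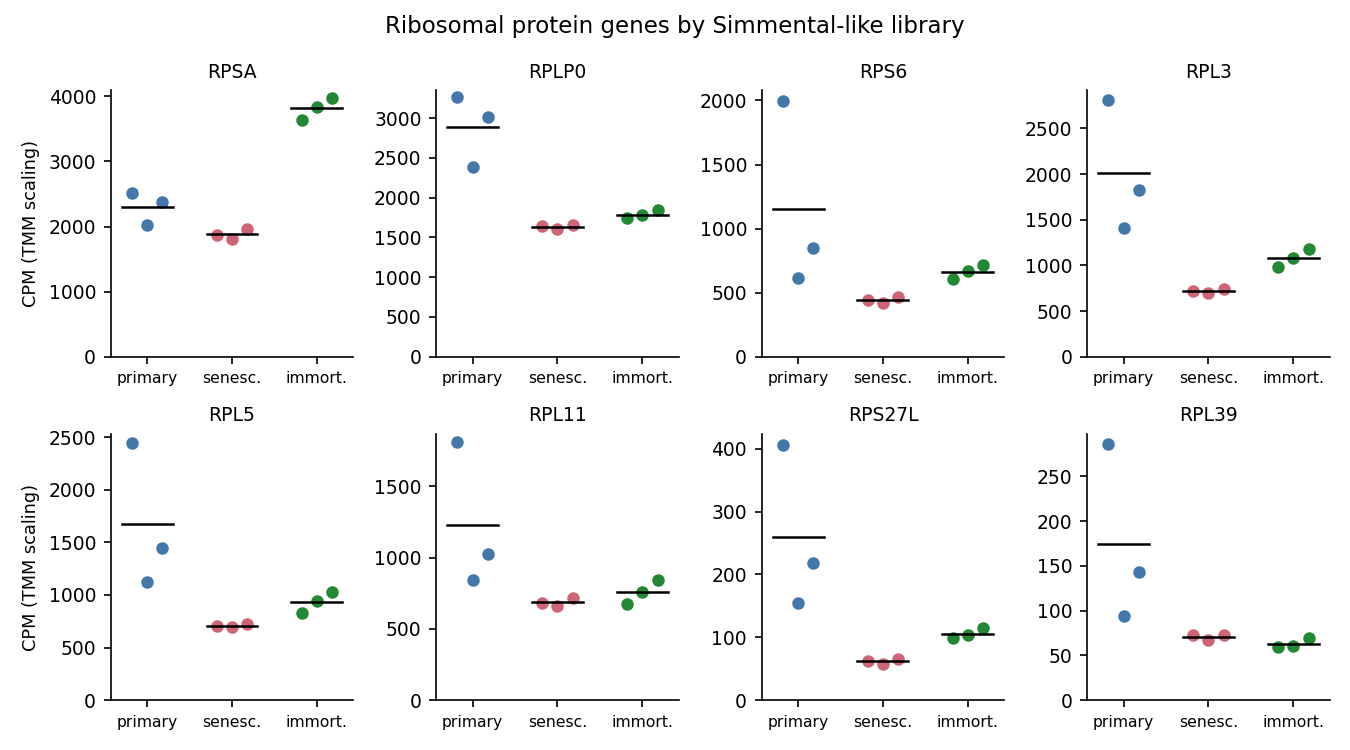
CPM after TMM scaling (y axis from 0) of 8 ribosomal protein genes in the 9 Simmental-like libraries, by stage; points are libraries in replicate order and black lines are means of 3. RPSA is highest in immortalized libraries (3634 to 3983 CPM), whereas the other 7 genes have their highest mean in primary libraries, with primary library 1 on top in each. Some primary libraries overlap the immortalized ones, as for RPS6, of which the first row is drawn.

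Against primary libraries, immortalized libraries held less of most members, and RPSA was the only member called higher with all libraries. Of 98 members, 47 were called lower and 1 higher, while 25.5% of all genes tested were called lower and 24.9% higher. The median change was -0.79, against -0.00136 over all genes tested, and 44 members had every immortalized library below every primary one (27.2% of all genes). Single libraries moved these counts. The median was -0.38 with 49 lower and 4 higher without primary library 1, and 85 members were called lower without primary library 2. Without immortalized libraries 1 and 2 the counts were 19 and 21. With total counts the median of all genes was 0.30, that of the members was -0.43, and 29 members were called lower.

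RPSA, with 3634, 3844 and 3983 CPM in immortalized libraries and 2516, 2018 and 2382 CPM in primary ones, rose by 0.73 ± 0.12 on the log2 scale (adjusted p = 0.000928). RPS15A, a small subunit protein, had 301, 324 and 384 CPM in immortalized libraries, against 1869, 559 and 799.9 CPM in primary libraries, and fell by 1.68 ± 0.39 (adjusted p = 0.00714). RPL36 changed by -1.51 ± 0.46 (adjusted p = 0.0234), RPL26 by -1.49 ± 0.36 (adjusted p = 0.00878) and RPL39 by -1.46 ± 0.35 (adjusted p = 0.008). RPLP0 had 1738, 1780.1 and 1839 CPM in immortalized and 3265, 2385 and 3009 CPM in primary libraries, a change of -0.69 ± 0.13 (adjusted p = 0.00214). Further called members with a known role were RPL3 at -0.90 ± 0.23 (adjusted p = 0.0105), RPL5 at -0.84 ± 0.25 (adjusted p = 0.0234), RPS2 at -0.59 ± 0.18 (adjusted p = 0.0253), RPS27L at -1.30 ± 0.30 (adjusted p = 0.00754), RPS19 at -0.91 ± 0.32 (adjusted p = 0.0432) and RPL11, narrowly, at -0.69 ± 0.26 (adjusted p = 0.0497). The calls of RPL11, RPS19 and RPS2 were lost without primary library 3 or any 1 immortalized library, those of both RPL36 rows without any 1 immortalized library and that of RPL5 without immortalized library 1 or 2 (adjusted p 0.0505 to 0.147), whereas the other named calls, RPSA included, held whichever library was left out.

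Members without a call here were RPS6, at -0.80 ± 0.37 (adjusted p = 0.107), RPS27A, at -0.64 ± 0.27 (adjusted p = 0.0755), RPLP1, RPLP2, RPS4Y1 and RPL10. RPS4 at -0.13 ± 0.13 and RPS27 at -0.25 ± 0.18 had overlapping groups, and with total counts their changes were 0.19 and 0.082. RPL4 had 2323, 2545 and 2685 CPM in immortalized libraries, all within the 1905.5 to 3401 CPM of the primary ones. Its change of -0.01 ± 0.20 (adjusted p = 0.956) was above 0 under several alternatives, and 0.33 with total counts.

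To ask which members changed relative to the group as a whole, the same test was run with the summed ribosomal protein counts of each library as its size. Levels are then percentages of these summed counts, which also depend on transcript length. By this measure 8 members were higher and 16 lower in senescent than in primary libraries, out of 98, and the background of all genes tested was 58.3% higher and 4.25% lower. For immortalized against senescent libraries 6 were higher and 4 lower, beside 3.37% higher and 22.1% lower over all genes, and for immortalized against primary libraries 7 were higher and 16 lower, beside 25.9% and 9.21%. The members' own sum sets this scale, so their median lies near 0 by construction and the other genes move against it. Counts moved with single libraries. For senescent against primary libraries there were 20 higher and 26 lower without primary library 1, 2 and 7 without primary library 3, 2 and 6 without senescent library 1, 2 and 4 without senescent library 2, 4 and 4 without senescent library 3, and 2 and 6 with senescent libraries 1 and 2 summed. For immortalized against senescent libraries at most 3 were higher and at most 1 lower without any single library of these stages, and 2 were higher and 0 lower with the same libraries summed (at an unadjusted p under 0.05, 6 and 4). For immortalized against primary libraries there were 21 higher and 35 lower without primary library 1, 9 and 25 without primary library 2, 4 and 9 without primary library 3, and at most 5 higher and 8 lower without any 1 immortalized library.

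RPSA took a larger share at each later stage, with 1.80%, 3.25% and 2.87% of the summed ribosomal protein counts in primary libraries, 4.39%, 4.39% and 4.45% in senescent ones and 6.45%, 6.22% and 5.96% in immortalized ones. No ranges overlapped, and primary library 1 was the lowest of all. The change was 0.74 ± 0.21 for senescent against primary (adjusted p = 0.0163) and 1.23 ± 0.21 for immortalized against primary libraries (adjusted p = 0.00258), and 0.49 ± 0.21, short of the threshold, for immortalized against senescent libraries (adjusted p = 0.11). RPL4 took 3.76%, 3.75% and 3.69% in senescent libraries, against 2.43%, 3.07% and 2.81% in primary libraries, a change of 0.43 ± 0.12 (adjusted p = 0.0173), and RPS27 changed by 0.46 ± 0.16 (adjusted p = 0.0336).

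Other members lost share. RPL26 took 0.471%, 0.468% and 0.484% in senescent libraries, against 1.05%, 0.777% and 0.816% in primary libraries, a change of -0.90 ± 0.15 (adjusted p = 0.00174). RPS27L took 0.146%, 0.138% and 0.149% in senescent and 0.2905%, 0.2501% and 0.2636% in primary libraries, a change of -0.89 ± 0.13 (adjusted p = 0.000968). Both were also lower in immortalized than in primary libraries, RPL26 at -0.80 ± 0.15 (adjusted p = 0.0039) and RPS27L at -0.64 ± 0.13 (adjusted p = 0.00614).

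RPS15A and RPL39 lost share at the immortalized stage. RPS15A took 0.534%, 0.524% and 0.575% of the summed counts in immortalized libraries, against 0.858%, 0.863% and 0.861% in senescent libraries. The groups were apart, at -0.66 ± 0.17 (adjusted p = 0.0225), and against primary libraries the change was -0.97 ± 0.17 (adjusted p = 0.00275). RPL39 took 0.106%, 0.0973% and 0.104% in immortalized libraries, against 0.169%, 0.163% and 0.164% in senescent libraries, at -0.69 ± 0.15 (adjusted p = 0.0133). RPL11 was at -0.39 ± 0.11 in the same comparison (adjusted p = 0.0322). Members that gained share there were RPS29 (0.77 ± 0.16, adjusted p = 0.00871), the second RPL36A row (0.69 ± 0.15, adjusted p = 0.0107), RPL32 (0.55 ± 0.12, adjusted p = 0.0133) and RPS26 (0.51 ± 0.11, adjusted p = 0.0119). Against primary libraries RPL14, a surface protein of the large subunit, was at 0.61 ± 0.11 (adjusted p = 0.00344), RPS29 at 0.61 ± 0.15 (adjusted p = 0.0164) and the second RPL36A row at 0.97 ± 0.15 (adjusted p = 0.00135). The calls of this comparison between immortalized and senescent libraries were lost, with adjusted p of 0.0501 to 0.123, without senescent library 2 for each of these members, and without other single libraries for all but RPS29. Those of RPSA, RPL26, RPS15A, RPL39, RPL14 and the second RPL36A row against primary libraries held whichever library was left out, while RPS29 missed the threshold there without primary library 3 or immortalized library 1 or 3. For senescent against primary libraries RPL4 and RPS27 missed it without primary library 3 or senescent library 1 or 2 and with senescent libraries 1 and 2 summed (adjusted p 0.0553 and 0.0746), and RPS27 also without senescent library 3. Summing these libraries also ended the calls of RPL11, RPL32, RPL39, RPS15A and RPS26 between immortalized and senescent libraries (adjusted p 0.0519 to 0.104).

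**Figure D4:**
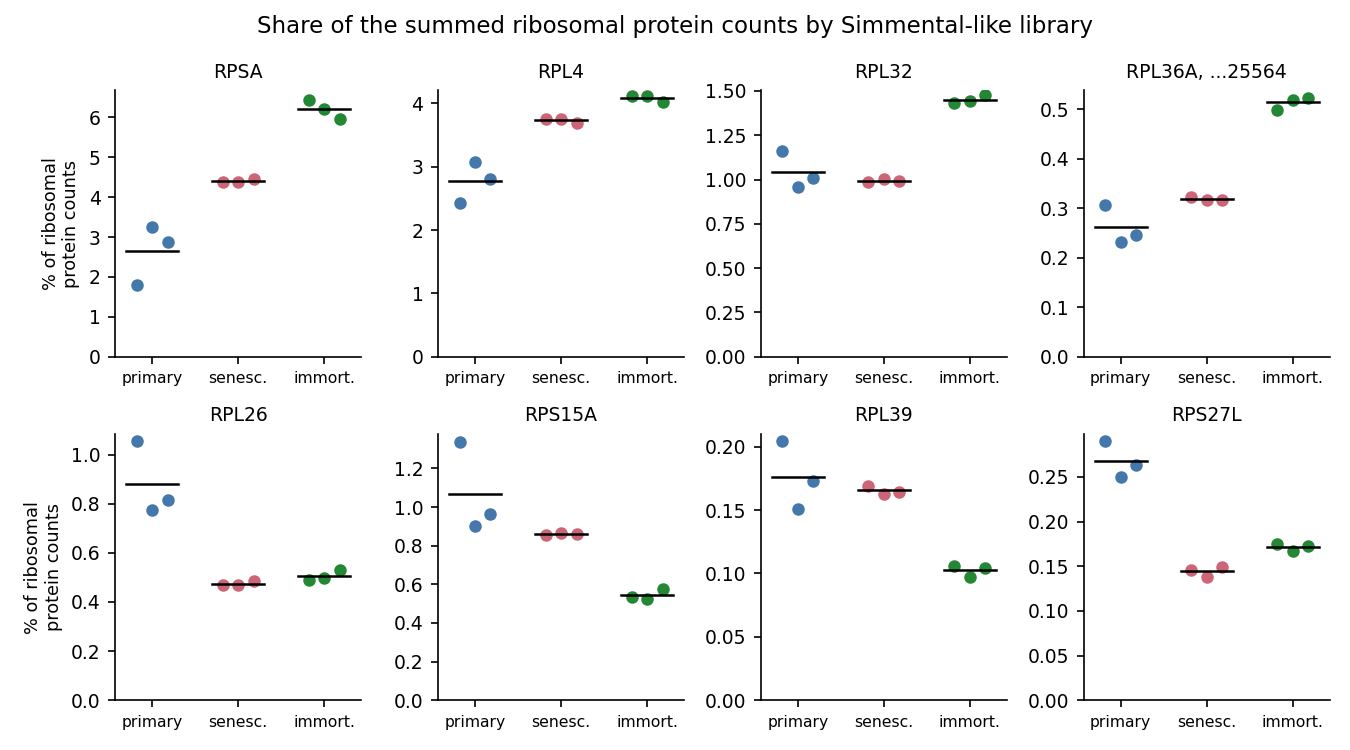
Percentage of the summed ribosomal protein counts (y axis from 0) taken by 8 members in the 9 Simmental-like libraries, by stage; points are libraries in replicate order and black lines are means of 3. RPSA steps up from 1.80% to 3.25% in primary over 4.39% to 4.45% in senescent to 5.96% to 6.45% in immortalized libraries, while RPS15A and RPL39 are lowest in immortalized libraries.

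Members that RefSeq places on a common chromosome were set side by side, as a description. RPSA, RPL14, RPL29 and RPL32 share 1 chromosome, and their changes between immortalized and senescent libraries were all between 0.97 and 1.08 (median 1.01), while the other 73 tested first rows of a name had a median of 0.47. The 330 other tested genes of that chromosome had a median of 0.49, and the median of the 4 members was the highest of the chromosome groups compared. The 4 members differed in the senescent against primary comparison, with -0.29 for RPSA and a lowest value of -1.35. Between immortalized and primary libraries they were at -0.34 to 0.73 (median -0.11), while the other first rows had a median of -0.77. In that comparison the 330 other tested genes of their chromosome had a median of 0.58, against -0.00136 over all genes tested. The 525 other tested genes of the chromosome of RPL4, RPLP1, RPS27L and RPS29 had a higher one, 0.71. The median of those members was -0.35. RPL7, RPL8, RPL30 and RPS20, which share another chromosome, were at 0.23 to 0.40 between immortalized and senescent libraries. The other tested genes of that chromosome had a median of -0.16. RPL19, RPL23, RPL23A, RPL26, RPL27 and RPL38, on a further one, were at 0.62 to 0.86, and its other tested genes had a median of 0.21.

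Some names had several rows, and values given under a name alone are those of its first row, the one with the most counts. Of the 78 names, 17 had more than 1 row kept, and the 21 further rows held 1.02% to 1.96% of the summed ribosomal protein counts in a library. Such rows can share reads with near-identical copies, and their counts are uncertain. They include RPS15A (ENSBTAG00000037600), at -2.11 ± 0.45 for immortalized against primary libraries (adjusted p = 0.00486), RPL23A (ENSBTAG00000032022), at -2.51 ± 0.91 for senescent against primary libraries (adjusted p = 0.0419), RPS27L (ENSBTAG00000040435), at -1.89 ± 0.34 (adjusted p = 0.0019), and RPL36A (ENSBTAG00000027610), at -1.92 ± 0.37 (adjusted p = 0.00288). RPL36 (ENSBTAG00000023471), for immortalized against primary libraries, was at -1.44 ± 0.46 (adjusted p = 0.0294). For RPL39 the row ENSBTAG00000034844 had 17.2, 25.7 and 7.57 CPM in senescent libraries, against 27.2, 7.96 and 12.1 CPM in primary libraries, with overlapping groups. The rows ENSBTAG00000045619 and ENSBTAG00000047136 had nearly equal values in every Simmental-like library, such as 11.2 and 11.2 CPM in senescent library 1. With these further rows left aside, 76 of 77 rows were lower in senescent than in primary libraries, 14 higher in immortalized than in senescent libraries, and 38 lower in immortalized than in primary libraries.

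Other genes of the translation and ribosome pathways were counted from lists. Their counts stand against 28.3% higher and 29.7% lower of all genes tested for senescent against primary, 16.4% and 16.1% for immortalized against senescent, and 24.9% and 25.5% for immortalized against primary libraries. Of 21 tested rows of translation genes whose transcripts carry the same pyrimidine tract, 1 was higher and 14 lower in senescent than in primary libraries, with a median of -0.72 against 0.01 over all genes tested. EEF1A1 (ENSBTAG00000034185), an elongation factor row, was at -1.81 ± 0.36 (adjusted p = 0.00339), and VIM, a fibroblast filament gene on the list, at -1.36 ± 0.19 (adjusted p = 0.000561). The member higher was LARP1, which binds the tract and represses it, at 1.50 ± 0.37 (adjusted p = 0.00875). In immortalized against senescent libraries 2 were higher and 1 lower, and against primary libraries 0 were higher and 11 lower. RPL22L1, a paralogue of RPL22 outside the name rule, was at -1.55 ± 0.16 for senescent against primary (adjusted p = 0.000115) and 1.02 ± 0.16 for immortalized against senescent libraries (adjusted p = 0.00179).

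Genes that build ribosomes were counted in the same way. Of 41 tested biogenesis factors, 13 were higher and 2 lower in senescent than in primary libraries (median 0.29), where 28.3% of all genes were higher and 29.7% lower. The share of higher ones was near that of all genes, and the share of lower ones was below it. There were 5 higher and 3 lower in immortalized than in senescent libraries, both shares below those of all genes (16.4% and 16.1%). Between immortalized and primary libraries 15 were higher and 2 lower, beside 24.9% and 25.5% of all genes. There the share of higher ones was above that of all genes and the share of lower ones below it. NIP7, a maturation factor of the large subunit, was at 2.09 ± 0.32 in senescent libraries (adjusted p = 0.000807), and TSR1, a factor of small subunit maturation, at 1.21 ± 0.26 (adjusted p = 0.00463). Nucleophosmin (NPM1) was at 0.49 ± 0.11 for immortalized against senescent libraries (adjusted p = 0.00943). Of 14 genes of RNA polymerase I and its factors, 3 were higher and 2 lower in senescent than in primary libraries, both shares below those of all genes. RRN3, the growth-regulated initiation factor of that polymerase, had 52.3 ± 1.79 CPM in senescent and 22.98 ± 2.45 CPM in primary libraries (SD, n = 3 each), a change of 1.19 ± 0.12 (adjusted p = 7.77e-05). It was at -1.04 ± 0.12 for immortalized against senescent libraries (adjusted p = 0.000292). Of 15 chaperones and importers of ribosomal proteins, 3 were higher and 6 lower in senescent than in primary libraries (median -0.026), among them BCCIP at -1.10 ± 0.19 (adjusted p = 0.00159).

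Of 14 genes of mTORC1 and its control of these transcripts, 6 were higher and 5 lower in senescent than in primary libraries (28.3% and 29.7% of all genes), and MLST8, a subunit shared by both mTOR complexes, was at -1.22 ± 0.11 (adjusted p = 4.2e-05). Between immortalized and senescent libraries 2 were higher and 1 lower (16.4% and 16.1% of all genes), with RHEB, the activator of mTORC1, at 0.79 ± 0.14 (adjusted p = 0.00286). Of 9 genes through which free ribosomal proteins act on p53, 3 were higher and 2 lower in senescent than in primary libraries, and 1 higher and 2 lower in immortalized than in senescent libraries, small counts that are near the shares of all genes. MDM2, the ligase bound by RPL5 and RPL11, was at -0.96 ± 0.17 in the second of these (adjusted p = 0.00294), and CDKN1A, a p53 target that stops the cell cycle, at -0.76 ± 0.11 (adjusted p = 0.000998).

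In the Holstein-like line the summed share is given by the marker genes that the single libraries held. It was 1.51%, 1.53% and 1.53% in the 3 libraries with muscle genes (labelled primary), 3.18% in the library with heart genes (senescent 1), 2.89%, 1.42% and 2.17% in those with liver genes (senescent 2, senescent 3 and immortalized 1), 2.71% in the one with kidney genes (immortalized 2) and 7.35% in the one with fibroblast genes (immortalized 3). Only the last was within the range of the Simmental-like libraries. The 2 libraries labelled senescent with liver genes differed by more than the binomial intervals allow, 2.877% to 2.895% and 1.41% to 1.42%.

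The paralogues RPL3 and RPL3L differed between these libraries. RPL3L is known to replace RPL3 in ribosomes of striated muscle. In the libraries with muscle genes RPL3L had 147, 149 and 132 CPM without TMM scaling and RPL3 had 43.9, 51.1 and 50.5 CPM, so RPL3L made up 77.0%, 74.5% and 72.3% of the counts of the pair, from 214, 219 and 188 RPL3L counts. In the library with heart genes RPL3L had 300.0 CPM and RPL3 had 143 CPM, a share of 67.7% with an exact binomial 95% interval of 66.6% to 68.9%. In the 5 other Holstein-like libraries the share was between 0.0313% and 0.662%, and in Simmental-like libraries it was between 0 and 0.0421%. Simmental-like primary library 1 had 0 RPL3L counts, which allows up to 3 counts, 0.148 CPM.

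**Figure D5:**
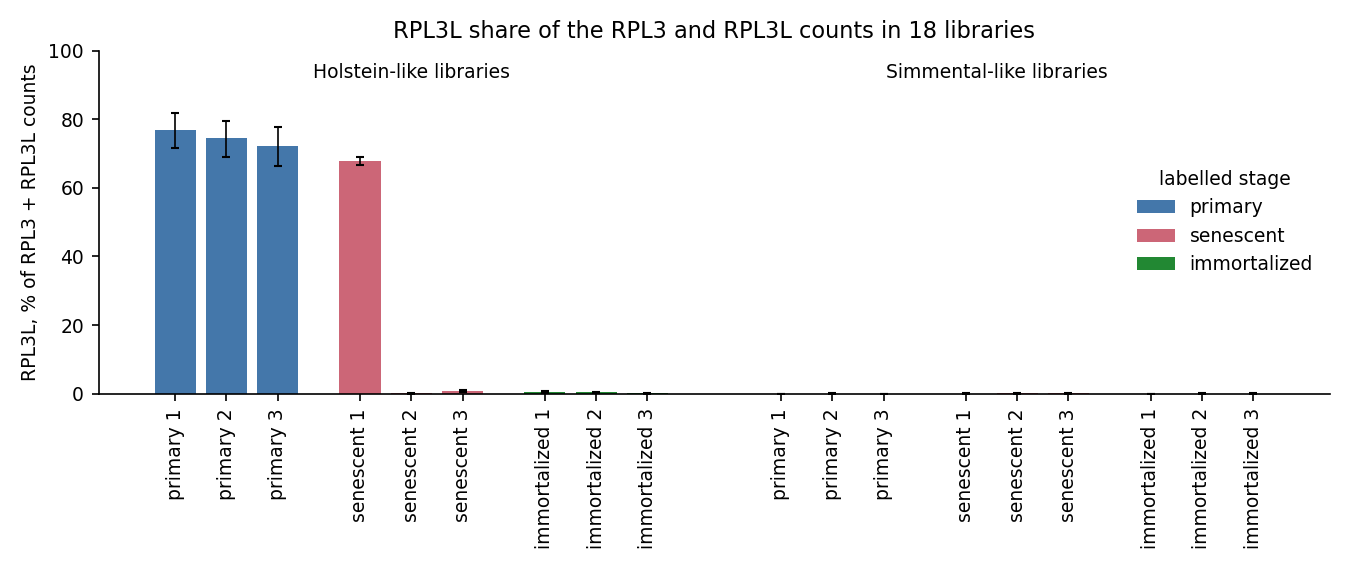
Counts of RPL3L as a percentage of RPL3 and RPL3L counts together (y axis, 0 to 100) in each of the 18 libraries, with exact binomial 95% intervals that cover counting error only and colours by labelled stage. The 3 libraries with muscle genes and the one with heart genes are at 67.7% to 77.0%, and the other 14 at or under 0.662%.

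Further members differed in their share of the summed ribosomal protein counts. Of the 82 members with at least 100 counts in a Holstein-like library, 18 were above and 36 below the whole Simmental-like range in all 3 libraries with muscle genes, and 29 were above and 27 below it in the library with heart genes. The other kinds had many members outside it too. There were 17 above and 15 below in all 3 libraries with liver genes, 26 and 24 with kidney genes, and 23 and 22 with fibroblast genes. RPS20, RPS12, RPL38 and the first row of RPS6 were low in the libraries with muscle genes, where each had between 9 and 54.9 counts per library. RPS20 took 0.118% to 0.164% there, against 1.32% to 1.80% in Simmental-like libraries. RPS20 was below that range in every other Holstein-like library too, at 0.506% to 0.879%. In the libraries with muscle genes the first row of RPS6 took 0.1997% to 0.249%, against 0.99% to 1.43%. A second row of RPS6 (ENSBTAG00000005315) went the other way, with 0.937%, 1.015% and 0.994%, against 0.460% to 0.835%. The deficit of RPS6 as a whole in the libraries with muscle genes was thus smaller than that of its first row. RPLP1 took 6.80%, 6.74% and 7.16% in these libraries and 5.66% in the library with heart genes, against 1.79% to 2.59% in Simmental-like libraries. The remaining Holstein-like libraries were above that range by less, at 2.65% to 3.03%.

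The libraries with liver genes had 1.48%, 1.66% and 1.45% of the summed counts in RPS27, against 0.351% to 0.640% in Simmental-like libraries, and 0.868% to 0.914% in RPL13, against 1.73% to 2.19%. Neither was particular to them. The libraries with heart, kidney and fibroblast genes were also above the range for RPS27 (1.087%, 0.943% and 1.10%). They were also below it for RPL13 (0.960%, 1.185% and 1.57%). Those with muscle genes had 0.123% to 0.187% in RPS27 and 1.54% to 1.92% in RPL13. The library with kidney genes had 4.02% in RPS3A, against 1.43% to 2.18%. RPS3A was also above that range in the libraries with muscle, heart and fibroblast genes (2.48% to 3.58%). In those with liver genes it was at 2.71%, 1.91% and 2.17%. In the Holstein-like library with fibroblast genes, the members farthest below the Simmental-like range, among the 82 members with at least 100 counts in a Holstein-like library, were RPS4Y1, at 0.0384% against 0.279% to 0.307%, and RPS27L, at 0.0567% against 0.138% to 0.290%. In that library RPL21 was above the range, at 1.74% against 0.773% to 0.968%. RPSA took 2.06% there, a share that lies between Simmental-like primary libraries.

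RPS29 and RPL39 were almost without counts in the whole Holstein-like line. RPS29 had 0 counts in 7 of those libraries and 1 count in senescent library 1 and in immortalized library 3, against 234 to 737 counts in Simmental-like libraries. The 4 rows of RPL39 together had 0 to 32 counts in Holstein-like libraries, against 1678 to 6229 in Simmental-like libraries. Both held also for the library with fibroblast genes, with 1 and 20 counts in 14 M counts. Holstein-like columns carry the word Rerun in the table and Simmental-like ones do not, and the part of processing in these differences was not tested.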

How the data were processed

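RNA was extracted with RNeasy mini kits, and libraries made with an NEBNext Ultra II RNA kit were sequenced on a NextSeq, per the labels' protocols. The genome build was UMD3.1, per the submitters' processing notes. The authors deposited 1 table of expected counts for Ensembl genes, which by its name came from salmon. The sources used here do not give the salmon version or the strandedness. Expected counts were rounded to whole numbers for tests and used as deposited for shares.

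The 9 Simmental-like libraries were fitted together with edgeR 4.0.16 in R 4.3.3 (TMM, filterByExpr by stage, robust quasi-likelihood F-test, Benjamini-Hochberg adjustment over all 13099 genes tested, threshold 0.05). An SE is the absolute log2 change divided by the root of its F statistic. A second fit took the summed member counts as library size. Shares were compared by exact permutation tests, and intervals are exact binomial ones at 95% (scipy 1.17.1). Alternatives were other scalings and filters, DESeq2 1.42.0, limma-voom (limma 3.58.1), a replicate block, 6 libraries and leaving out or summing libraries. Code was tested on simulated data.

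Named members are a set picked for role; per comparison and direction up to 6 called members with the largest change and groups apart; up to 4 called within the summed counts; the 5 with the highest share; and, in Holstein-like libraries, those farthest from the Simmental-like range. The members, lists and rules were chosen with earlier results of these data known. All 78 names matched symbols or synonyms in RefSeq (assembly ARS-UCD2.0), which was used for names and shared chromosomes only. No coordinates are given because the builds differ.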

Additional observations from a re-analysis of the deposited data

How the results depend on the processing

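Senescent libraries were lower than primary ones for 71 to 96 members under all alternatives run, and RPSA was higher in immortalized than in senescent libraries under all of them. Called counts of immortalized against senescent libraries depended most on the libraries in the fit: 10 higher with the replicate block, 83 higher and 2 lower with 6 libraries, 4 with senescent libraries 1 and 2 summed, and 3 to 9 with a library left out, against 16. Shares of all genes called were taken for the main fits only, so counts under the alternatives have none beside them. For immortalized against primary libraries, 29 (total counts), 18 (6 libraries) and 19 to 85 (a library left out) were lower, against 47, and 1 to 4 were higher, against 1. Senescent against primary libraries gave 75 to 96 lower with a library left out and 89 with the block. The summed share differed by -3.73 to -1.505, 1.18 to 1.71 and -2.30 to -0.072 points with a library left out, and by -5.21, 1.89 and -3.32 points per TMM-scaled total.

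Relative to the summed ribosomal protein counts, senescent against primary libraries gave 4 higher and 8 lower without a filter, 4 and 8 with the replicate block, 2 and 6 with senescent libraries 1 and 2 summed, 8 lower with median-of-ratios scaling, and 2 to 20 higher and 4 to 26 lower with a library left out. Immortalized against senescent libraries gave 2 and 1 with the block, 2 and 0 when summed (at an unadjusted p under 0.05, 6 and 4), 11 lower with DESeq2, and 0 to 3 higher and 0 to 1 lower with a library left out. Immortalized against primary libraries gave 14 higher and 29 lower with DESeq2, 14 and 9 with median-of-ratios scaling, 9 lower with the block, and 4 to 21 higher and 8 to 35 lower with a library left out. The cause was not tested.

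Total counts turned the sign of RPSA for senescent against primary (0.19), of RPLP0 (-0.035) and RPL11 (-0.022) for immortalized against senescent, and of RPS4 (0.19), RPS27 (0.082) and RPL4 (0.33) for immortalized against primary libraries. RPL4 in the last comparison was also above 0 with upper-quartile scaling (0.052), limma-voom (0.021) and the replicate block (0.014), at 0.041 without immortalized library 1 and 0.23 without primary library 1, in a range of -0.19 to 0.23 with a library left out. None of these 6 was called in the comparison concerned. For single named members, 1109 of the alternative values kept direction and side of the threshold, 188 lost the call, 26 gained it and 11 changed sign. Same-numbered libraries did not deviate together (correlations -0.50 to 0.18), so the numbers are not taken as pairs. Of the mitochondrially encoded protein genes, 6 were found by name for the share without them. Depth limits the Holstein-like primary libraries, where 3 counts are 2.05 to 2.11 CPM.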
